A study of Homo sapiens with 30 samples.

Results

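The ND5.3 editor is a DdCBE, a mitochondrial base editor, and the 611 regions described here are the complete final list of its nuclear deoxyuridine sites in HEK293T, an established line from human embryonic kidney. All rows of that list were taken, out of 1139 distinct intervals in the final lists of 4 editors. Detect-seq labels deoxyuridine in genomic DNA, pulls down the fragments that carry it and reads their positions. The other lists, for the ND4, ND5.1 and ND6 editors, held 83, 539 and 716 regions. Of the 30 libraries, 2 name the ND5.3 list, and both are pulldowns of cells treated with ND5.3-L1397C, where L1397C gives the arrangement of the split DddA. Full editors named beside the ND5.1 and ND6 lists were L1397N by their treatment labels, and those beside the ND4 list were of both kinds. For each of these 3 editors, 2 further L1397N pulldowns carry Lipo2000 in their titles and name the same list. Target site and arrangement therefore cannot be told apart when ND5.3 is set against ND5.1 or ND6. Libraries of dead DddA and of editors that lack a TALE array name the lists of ND4, ND5.1 or ND6, the GFP library names none, and the ND5.3 libraries have no such control of their own. By title, 1 input library each was made for the L1397N editors of ND4, ND5.1 and ND6, and none for ND5.3. The lists hold 1 row per region and no value per library, so no spread between the 2 libraries can be given, and the labelled cell line cannot be checked against markers.

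As background, DddA is a bacterial toxin that deaminates cytosine in double-stranded DNA, most readily where a T precedes the C. In a DdCBE the toxin is split, and each part is fused to a TALE array and a mitochondrial targeting signal, so that the parts meet at the chosen mtDNA site. Deamination turns C into U, which is read as T. Editor that reaches the nucleus can leave deoxyuridine there, and CTCF, a zinc finger protein that shapes chromatin loops, has been discussed in connection with such nuclear sites.

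The list gives only chromosome, start and end, so sequence was read from RefSeq on GRCh38.p14, the assembly behind hg38. It was read where a region lay wholly inside a start window, which runs from 250 bases before to 50 after a listed gene start. This held for 37 of the 611 regions (6.06%, 95% Wilson interval 4.43 to 8.24), although the windows cover 0.320% of the annotated span of the chromosomes. For the other 574 regions no sequence was read. Of the 37, 30 were held with the same interval in another list that gives a strand, and 7 were in the ND5.3 list alone.

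The ends of the regions followed the bases. With both ends counted from 1 and included, all 30 regions with a listed strand began and ended on a C of that strand, and all 30 had a T just before the first C. With starts counted from 0, 17 of 30 first bases fitted the strand and 15 of 30 had the T. Starts are therefore read here as counted from 1, and a width includes both ends. The 7 regions of the ND5.3 list alone have no listed strand, but 4 ran from C to C with a T before, and 3 ran from G to G with an A after, which is the same pattern on the reverse strand. Over all 37 regions the first C thus had a T before it, against 20.7% of the 6060780 cytosines on both strands of all start windows. The start count was chosen on these same bases, and the strand of the 7 was read from their end bases. The share over the 37 regions is therefore a description that depends on both choices. The last C did not share the T context: C preceded it in 15 regions, G in 10, T in 7 and A in 5.

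The following sequences show that form. They are the 10 regions that lie in most lists and then have the highest signal in ND6, written 5′ to 3′ on the strand of the C run, with the region in capitals and up to 10 flanking bases in lower case. Flanks are left off where they would take in bases past a listed start.
SLC30A5 (chr5:69093795-69093840, reverse strand, in all 4 lists): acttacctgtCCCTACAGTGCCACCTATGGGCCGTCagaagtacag
ZSCAN25 (chr7:99616876-99616917, reverse strand, in 3 lists): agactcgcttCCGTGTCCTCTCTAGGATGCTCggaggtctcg
LOC124904953 (chr20:63381985-63382027, forward strand, in 3 lists): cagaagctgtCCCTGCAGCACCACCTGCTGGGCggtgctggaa
ZNF330 (chr4:141220892-141220908, reverse strand, in 3 lists): CCTTTTACGACAGCAGC
LOC124900823 (chr4:183472407-183472441, reverse strand, in 3 lists): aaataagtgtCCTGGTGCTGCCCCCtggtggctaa
LOC124903549 (chr15:89358764-89358794, reverse strand, in 3 lists): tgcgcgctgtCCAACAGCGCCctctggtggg
CFAP52 (chr17:9576625-9576648, forward strand, in 3 lists): CCGTTACCATAACGACCAGAAGAC
SNHG20 and SEC14L1 (chr17:77088583-77088640, forward strand, in 3 lists): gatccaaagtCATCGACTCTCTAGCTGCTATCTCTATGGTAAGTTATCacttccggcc
ARL14EP (chr11:30323016-30323058, forward strand, in 3 lists): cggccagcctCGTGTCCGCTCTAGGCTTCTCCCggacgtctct
RAB5IF (chr20:36605529-36605561, forward strand, in 3 lists): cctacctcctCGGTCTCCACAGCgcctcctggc
Each shown flank ends in t directly before the first capital C. Counted on the strand of the run, the 37 regions held a median of 7 C (5 to 13) and a median of 2 C with a T before (1 to 7).

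A short sequence recurred among them. When all hexamers were counted over the 37 regions with their flanks, with the strands pooled, CTCTAG and its complement CTAGAG stood in the most regions. It lay within the region itself in 9 of 37 (24.3%), against 0.567% of stretches of the same length at the same place in all 35116 start windows. With flanks it was in 10 regions, against 1.36%, while 11.3% of whole windows held it. The stretches set beside the regions were matched by length and place, not by starting and ending on a C. In all 10 it read CTCTAG on the strand of the C run, and in 0 of 37 regions did that strand read CTAGAG. Of the 9 regions that contained it, 5 had it starting at the fourth base, directly after the first 3 bases of the run. The hexamer was chosen after the sequences were seen, so its count is a description. The regions beside ZSCAN25, SNHG20 and ARL14EP, printed above, contained it. The 6 others are shown here because they carry the pattern, with CTCTAG in capitals, on the strand of the run.
TIMM10 (chr11:57530884-57530919, reverse strand): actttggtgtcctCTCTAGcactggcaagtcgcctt
ZSCAN30 (chr18:35290307-35290340, reverse strand): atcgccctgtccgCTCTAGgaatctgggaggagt
COX7A2 (chr6:75243912-75243942, forward strand): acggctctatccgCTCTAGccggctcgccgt
ZNF620 (chr3:40505979-40506012, reverse strand): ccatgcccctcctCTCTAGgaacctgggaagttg
COA1 (chr7:43729551-43729584, reverse strand): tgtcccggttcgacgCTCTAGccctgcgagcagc
LOC105371622 and CACYBP (chr1:174999624-174999638, reverse strand): ccgCTCTAGgacacc
The first 5 of these were shared with ND6 alone, and the last was in no other list.

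The CTCF sequences searched were a core (CC, any 3 bases, AG, any base, GGGC) and a looser form, AGNGGGC, on both strands, the second lying within the first. The core was inside 0 of 37 regions, and within region and flanks of 3 (8.11%), those at LOC124900823, LOC124903549 and DMKN, a gene of the epidermis. The share at the same place in all start windows was 0.442% with flanks, and 3.92% of whole windows held the core. The looser form lay inside 4 regions (10.8%, against 1.93% at the same place) and with flanks in 9 (24.3%, against 4.73%). Of whole windows, 30.4% held it, and here too the stretches at the same place were not matched for their end bases. In 8 of those 9 regions the strand of the run read GCCCNCT, the complementary letters, and in SLC9A4, a sodium-proton exchanger gene, it read AGNGGGC. At LOC124900823 and DMKN the run ended inside these letters, where GCCCCC is followed by tggtgg. A match names letters in this window and no bound protein.

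Some of these starts belong to nuclear genes for mitochondrial proteins. They were picked out after the genes were seen, with no fixed list, and how common such genes are among all listed starts was not computed, so they are a description only. COX7A2 (region chr6:75243922-75243932) and COX7C (chr5:86617862-86617889) encode subunits of cytochrome c oxidase, and COA1 (chr7:43729561-43729574) an assembly factor for it. TIMM10 (chr11:57530894-57530909) and DNAJC19 (chr3:180989770-180989782) act in protein import, RMND1 (chr6:151452216-151452230) in mitochondrial translation and OXCT1 (chr5:41843689-41843703) in the use of ketone bodies. The deposited ND6 signal, a value per region with no stated normalization, was low for those that ND6 held. It was 8.93 for DNAJC19, 6.62 for COX7C, 6.49 for TIMM10, 6.14 for COX7A2, 5.65 for OXCT1 and 4.83 for COA1, against a median of 12.1 for the 489 ND6 regions held in ND5.3. RMND1 was in the ND5.3 list alone.

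Other starts with a region included some of zinc finger genes, of transport genes and of genes for DNA replication and repair. These groups were also picked out after the genes were seen, with no share among all listed starts beside them, so they are a description only. The zinc finger genes were ZNF330 (ND6 signal 27.9), ZSCAN25 (41.6), ZSCAN30 (6.31) and ZNF620 (5.57). SLC30A5, a zinc transporter of the secretory pathway, had the highest ND6 signal of the 37 at 60.7 (rank 13 of 716). SLC9A4 stood at 17.7, ZFYVE27, which acts in membrane traffic to neurites, at 13.4, and RAB5IF at 13.4. ORC4, a subunit of the origin recognition complex, shares a start region with MBD5 (8.52), and FANCE, a subunit of the Fanconi anaemia core complex, stood at 5.86. MLF1 (12.7), CFAP52, a ciliary gene (14.6), SNHG20 with SEC14L1 (14.5), ARL14EP (14.0), DMKN (11.5), COMMD4 (9.50), CPNE4, a copine gene (8.88), GNL1 with PRR3 (8.63), SELENOK, an endoplasmic reticulum selenoprotein (7.57), and CSNK1G3, a casein kinase (6.59), completed the named starts that ND6 also held. The uncharacterised starts LOC124904953, LOC124900823, LOC124903549 and LOC124904620 stood at 32.1, 18.7, 17.3 and 5.69.

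The 7 start-window regions in the ND5.3 list alone lay at UROD, an enzyme of haem synthesis, GRN, which encodes progranulin, CDC40, a splicing factor, RMND1, ABCD4, a lysosomal transporter, EEF1AKMT2, a methyltransferase of an elongation factor, and LOC105371622. The last also lay inside CACYBP, but 196 bp after its start and so outside its start window. The 7 regions are printed here, other than the last, because no strand or signal is listed for them and the sequence is what is known of them. They were chosen for printing after the list was seen, and the region is in capitals on the strand its end bases read as.
UROD (chr1:45012128-45012167, forward strand): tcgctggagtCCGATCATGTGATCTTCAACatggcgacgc
GRN (chr17:44345081-44345135, forward strand): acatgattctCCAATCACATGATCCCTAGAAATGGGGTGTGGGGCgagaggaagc
CDC40 (chr6:110180357-110180391, forward strand): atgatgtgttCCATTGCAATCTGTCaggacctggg
RMND1 (chr6:151452206-151452240, forward strand): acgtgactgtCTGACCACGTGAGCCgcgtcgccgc
ABCD4 (chr14:74303000-74303033, reverse strand): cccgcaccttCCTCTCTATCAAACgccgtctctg
EEF1AKMT2 (chr10:124791880-124791894, reverse strand): CCGCTCTGCCTGTGC

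Start windows give a strand to genes, so regions could be set before or after a start. Of the 584 regions on chromosomes with listed protein-coding starts, 29 had their centre within 250 bp before the nearest such start and 7 within 250 bp after it. From 250 to 1000 bp, 13 lay before and 11 after. Within 250 bp before a start, 24 of the 29 were shared with another list and 5 were in ND5.3 alone. Starts were listed for 15813 of 19821 protein-coding genes. Distances for the remaining genes run to a neighbour.

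More regions lay near gene starts than the length of those windows would hold, whereas gene bodies held about the share that their length gives. Within 1 kb of a listed gene start lay 72 of 611 regions (11.8%, 9.46 to 14.6), while those windows cover 1.89% of the annotated span, a ratio of 6.22. The starts used here include none on chromosome 8, and without its 27 regions the share was 12.3% of 584 (9.91 to 15.2) against 1.99% of the span. Within 1 kb of either bound of a protein-coding gene lay 73 regions (11.9%, 9.61 to 14.8), against 2.44% of the span. Gene bodies held 346 regions (56.6%, 52.7 to 60.5) against 56.3% of the span, and protein-coding gene bodies 268 (43.9%, 39.98 to 47.8) against 42.6%. These shares of the span are descriptions and no test was made against them. Exons and introns were not analysed here. For the 172 regions with a strand inside protein-coding genes of known strand, the listed strand was that of the gene in 94 (54.7%, 47.2 to 61.9).

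Compared with the 528 intervals found only in other lists, ND5.3 regions lay in genes less often. The share in gene bodies was 56.6% against 65.2%, -8.52 percentage points apart (adjusted p = 0.00882 over 10 two-sided Fisher's exact tests). In protein-coding gene bodies it was 43.9% against 53.0%, a difference of -9.17 points (Fisher's exact test, adjusted p = 0.00803). Within 1 kb of a listed start the shares were 11.8% and 15.7% (Fisher's exact test, adjusted p = 0.114), and near protein-coding gene bounds 11.9% and 15.2% (adjusted p = 0.196, Fisher's exact test). With a 5 kb window both of these differences passed, at -8.71 points (adjusted p = 0.00236) and -6.64 points (adjusted p = 0.0247, Fisher's exact tests). When the other lists were kept to their class IND, 157 of the 528 intervals remained. None of these 4 differences then passed, and those in gene bodies were -5.79 and -5.18 points (adjusted p = 0.577 each, Fisher's exact test). All 4 kept their sign, and with the smaller group a lost call does not tell whether class accounts for the differences. Regions are the unit of these tests and are no replicates of an editor.

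Class in the other lists set apart what ND5.3 held. Of ND6 regions in class IND, 489 of 596 (82.0%, 78.8 to 84.9) were ND5.3 members, as were 283 of 333 in ND5.1 (84.98%, 80.8 to 88.4) and 28 of 36 in ND4 (77.8%, 61.9 to 88.3). Of the other classes, 0 of 120 in ND6, 1 of 206 in ND5.1 and 0 of 47 in ND4 were, and the Wilson upper limits of the zero counts are 3.10% and 7.56%. The exception was a class IND.Extend region inside GJC1, a connexin gene (chr17:44830704-44830731, ND5.1 signal 10.99). What the classes stand for is not given in the files. A region was counted as shared when another list held the identical interval, so the 504 shared regions (82.5%) have the same bounds by definition. Counting any overlap of at least 1 bp gave the same share, 82.5%. The ND5.3 list gives no strand, so strands could be compared only for the 249 regions in 3 lists and the 24 in all 4, where 0 conflicts were found. The 231 regions in 2 lists take their strand from a single list. Of the 504, 274 were on the forward and 230 on the reverse strand.

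Membership in ND5.3 followed the signal of the ND6 list. From the lowest to the highest quintile of the ND6 signal, ND5.3 held 31.25%, 51.7%, 72.0%, 88.8% and 97.9% of regions. In the upper part of ND6, split at the median, 321 of 357 regions were in ND5.3 (89.9%) and in the lower part 168 of 359 (46.8%), a difference of 43.1 points (Fisher's exact test, adjusted p = 2.1e-36). Kept to class IND, the parts stood 30.5 points apart (97.3% against 66.8%), with an adjusted p of 9.5e-24 by the same test. The 135 class IND regions of highest ND6 signal were all in the ND5.3 list, and the first that was not ranked 138 of all ND6 regions with a signal of 19.2.

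For ND5.1 the quintiles gave 26.9%, 48.1%, 55.1%, 62.04% and 71.3%. Its upper and lower parts differed by 24.3 points (64.8% against 40.5%), with an adjusted p of 9.1e-08 by Fisher's exact test. Within class IND the 2 parts differed by 8.50 points and did not pass (adjusted p = 0.162, Fisher's exact test). There the lowest quintile stood at 60.4% and the others between 87.9% and 90.6%. The first class IND region of ND5.1 outside the ND5.3 list ranked 21, with a signal of 44.4. Whether the ND6 and ND5.1 relations differ was not tested, and since the lists share regions they are not independent.

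Regions in ND5.3 and ND6 but no other list numbered 216, with a median ND6 signal of 8.63 (3.82 to 40.4). The 248 regions that ND5.1 also held had a median of 17.1, and the 24 in all 4 lists 50.4. The highest of the 216 lay inside LOC105373429 (chr2:11418146-11418167) at 40.4, rank 33 in ND6. The next, with signals of 22.5 and 22.4, were 17096 bp from PTHLH, a hormone gene related to parathyroid hormone (chr12:27940971-27940988), and inside LOC101927558 (chr7:15721070-15721094). Those that followed had signals of 21.1 to 18.9. They lay 16085 bp from PTCHD1 (chrX:23318289-23318311), in the T cell receptor beta locus TRB (chr7:142300844-142300858) and 9204 bp from MTMR1, a phosphoinositide phosphatase (chrX:150683735-150683758). The last of the 8 were nearest to LOC128136 (chr1:239976531-239976552) and LOC107984934 (chr1:29793203-29793211).

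Only 12 regions were in ND5.3 and ND5.1 but not ND6 or ND4. The highest ND5.1 signal among them, 35.2 (rank 38 of 539), belonged to a region inside PCDH9, a protocadherin gene (chr13:67224360-67224388). A region 9900 bp from LOC791126 (chr18:36284870-36284890) stood at 16.6, and one inside A2ML1, a protease inhibitor gene (chr12:8860641-8860658), at 13.8. The remainder of the 8 highest lay inside GJC1, 29945 bp from GPC4, a glypican (chrX:133445434-133445456, 9.71), and 60517 bp from OLFM4 (chr13:52968286-52968296, 9.47). They ended with regions 5040 bp from APOBEC3B-AS1 (chr22:39003260-39003273, 8.19) and inside ZNF142 and BCS1L, the latter a chaperone of respiratory complex III assembly (chr2:218658755-218658770, 7.96).

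The 107 regions in the ND5.3 list alone (17.5%, 14.7 to 20.7) were set against the shared ones by position. Gene bodies held 59.8% of them and 56.0% of the 504 shared regions, and 14.0% against 11.3% lay within 1 kb of a listed start. By Fisher's exact test none of the 4 position differences passed (adjusted p of 0.577 to 0.669). The 95% intervals, 8.68 to 21.8 for the start share of the 107 and 8.83 to 14.4 for the 504, leave room for a difference. The median distance to the nearest listed protein-coding start was 25048 bp for ND5.3 alone and 34044 bp for shared regions. Beyond the 7 in start windows, those nearest to a protein-coding start lay 281 bp before SLC35E2B (chr1:1693068-1693084), 383 bp before RAB11B, a recycling endosome GTPase (chr19:8389968-8389986), and 458 bp after the start of FRA10AC1 (chr10:93702122-93702146).

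By chromosome, regions of the ND5.3 list alone were uneven. They made up 9 of 23 regions on X (39.1%, 22.2 to 59.2), and 0 of 25 on chromosome 7, 0 of 13 on chromosome 20 and 0 of 4 on chromosome 21. These chromosomes were picked from 23 after the counts were seen, and the count was not tested. The whole list spread over the 22 autosomes and X. Chromosome 1 held most, 81 regions, and chromosome 21 fewest, 4. Per 100 Mb of annotated span chromosome 19 held most (24 regions in 58.5 Mb), chromosomes 22 and 17 held 39.9 and 39.7 regions, and chromosomes 21, 18 and 13 held 9.60, 9.97 and 11.4. Across the 23 chromosomes the density of regions went with that of protein-coding genes (Pearson r 0.81, Spearman rho 0.84), a description over chromosomes. For intervals only in other lists the values were 0.49 and 0.62, and the difference was not tested.

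Few regions had a neighbour within 10 kb, but many had one within 1 Mb. The median gap between neighbours was 2217500 bp, and 6 regions, in 3 pairs, had a neighbour within 10 kb (0.98%). Within 100 kb 58 did (9.49%), and within 1 Mb 286 (46.8%). No share under even spacing was computed, so these counts do not tell whether the list is clustered or dispersed. The closest pair, 379 bases apart, lay between WASF1, an actin regulator, and CDC40 (chr6:110179973-110179987 and chr6:110180367-110180381). The first was in all 4 lists and the second in ND5.3 alone. Next came a pair 6189 bases apart near the pseudogene RPLP0P4 (chr1:153223231-153223253 and chr1:153229443-153229468) and a pair 7595 bases apart inside DAB1, a reelin signalling adaptor (chr1:58155528-58155551 and chr1:58163147-58163170). With chromosome 8 left out, pairs 13386 and 15439 bases apart followed. They lay inside and 12550 bp from LOC105369777 (chr12:54201485-54201496 and chr12:54214883-54214896) and inside ATXN1 (chr6:16316819-16316855 and chr6:16332295-16332304). No stretch of 1 Mb held more than 4 regions, again with chromosome 8 left out. Several stretches tied at 4, and only the first found, on chromosome 1, is described. Its 4 regions spanned 156424 bases. They lay inside DCST1 (chr1:155050609-155050617), inside EFNA3, an ephrin gene (chr1:155086212-155086220), 1357 bp from KRTCAP2, a subunit of the glycosylation machinery (chr1:155168036-155168051), and inside THBS3, a thrombospondin (chr1:155207019-155207032). THBS3 had the highest ND6 signal of the 4, at 23.1.

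Few genes held more than 1 region. The 346 regions in gene bodies touched 398 genes, 289 of them protein-coding, and 5 annotated genes held at least 2. ATXN1, DAB1, GRAMD1B, which encodes a sterol transfer protein, and JAZF1 held 2 each. The immunoglobulin kappa locus, IGK, 1378008 bp long, held 3 (chr2:88941344-88941361, chr2:89112615-89112632 and chr2:89243482-89243490), all on the forward strand and all in ND6. All 11 of these regions were shared with ND6.

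The regions were short. The median width was 18 bases (quartiles 14 and 24, range 6 to 67), and 322 of 611 (52.7%) were 11 to 20 bases wide. The 24 regions in all 4 lists had a median of 24.5 bases, those in 3 lists 18, in 2 lists 16 and in ND5.3 alone 16. Among the widest were those inside FAM221B (chr9:35826119-35826185, 67 bases), inside HPSE2 (chr10:98664639-98664702, 64), 119368 bp from LOC105378618 (chr1:30380556-30380617, 62) and inside BEND6 (chr6:57021278-57021328, 51). In ND6 the signals of the first 3 were 9.24, 9.70 and 17.0, and BEND6 was in ND5.3 alone. The narrowest named were inside STAB2, a scavenger receptor of hyaluronan (chr12:103632771-103632776, 6 bases), inside SS18 (chr18:26089806-26089812, 7) and 11252 bp from RPS15AP33 (chr16:28802683-28802690, 8).

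Gene families were counted by symbol, and their shares were read beside those of all genes, of which 1.46% of 19821 protein-coding genes held a region and 2.10% were within 5 kb of one. Of 96 genes for nuclear oxidative phosphorylation subunits, 2 held a region and 3 were within 5 kb (3.13%), among them COX7A2 and COX7C. Of 398 solute carriers 10 were within 5 kb (2.51%), among them SLC30A5, SLC9A4, SLC35F3 (chr1:234310114-234310136, ND6 signal 32.2), SLCO2B1, an organic anion transporter (chr11:75205110-75205124, 36.7), SLC5A4 (chr22:32266339-32266352, 6.49) and SLC25A53, a mitochondrial carrier family gene (chrX:104136591-104136605, in ND5.3 alone). Of 517 ZNF genes 5 were (0.967%), with ZNF536 (chr19:30664939-30664962) and ZNF185 (chrX:152959075-152959082) beside ZNF142, ZNF330 and ZNF620.

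The Rab, GPR, histone and ribosomal protein families gave 1 to 3 genes each. Of 74 genes with Rab symbols 3 were within 5 kb: RAB5B (chr12:55996290-55996338), RAB11B and RAB5IF, which matched by its symbol and is no Rab GTPase. Of 78 genes with GPR symbols 2 were, GPR161 (chr1:168084921-168084945, ND6 signal 54.4) and GPR37L1 (chr1:202135346-202135361, in ND5.3 alone). Of 87 histone genes 2 were, H4C1 and H4C2, beside 1 region (chr6:26026453-26026464), and of 80 ribosomal protein genes 1 was, RPS29 (chr14:49587003-49587037). None of 39 HOX genes was. The clustered protocadherins stood at 22 of 53, but a single region inside the overlapping gamma genes gave all 22 (chr5:141512494-141512502, ND6 signal 7.46). Antisense and LINC genes had 42 of 4372 within 5 kb (0.961%), against 1.13% of all 58419 genes. They included LINC01756 (chr1:29332374-29332405), LINC01702 (chr1:67532557-67532593), TFAP2E-AS1 (chr1:35564807-35564818), DCST1-AS1, THBS3-AS1 and LINC02771 (chr1:212477330-212477347). These shares are counts of genes that can share a region, and none was tested.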

How the data were processed

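Detect-seq libraries of HEK293T cells were used only through the 4 final lists. The submitters' processing notes name hg38 and the tools Picard, SAMtools, Bowtie2 and cutadapt, without versions. The calling of regions, the libraries each list pools and their depth are not stated in those notes or the labels. No replicate error can be had. The signal value is a score deposited by the authors, per the file headers, and was used to rank regions within a list. The ND5.3 list, deposited by the authors, has positions only. Strand, class and score came from identical intervals. Genes came from RefSeq on GRCh38.p14 (58419 genes on the autosomes and X), starts and sequence from 35116 start windows of 27305 genes. Shares carry 95% Wilson intervals, which cover counting error only. The 10 Fisher's exact tests were two-sided, with Benjamini-Hochberg adjustment and a threshold of 0.05 (SciPy 1.17.1). The overlap of regions with genes, the share of a span covered and Fisher's exact test were tested on simulated data, and the other steps were not. Named regions followed a fixed rule, with exceptions stated: start windows, highest signal by sharing pattern, nearest to starts, extreme widths, closest pairs and gene families. The 27 regions on chromosome 8 were counted, not named, and some other regions are not reported here. Members and lists were chosen with earlier results of these data known. Alternatives were other overlaps, windows, classes, signal splits and coordinate readings.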

Additional observations from a re-analysis of the deposited data

How the results depend on the processing

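No paired analysis was possible because each list is pooled and carries no value per replicate. Of 49 values recomputed under alternatives, 31 kept their call or moved by less than their interval. The share held in another list was 82.3% to 82.8% under all 4 alternatives. Shares that moved by construction were those near a listed start, 8.84% at 0.5 kb and 20.5% at 5 kb, near a protein-coding gene bound, 16.2% at 2 kb and 25.4% at 5 kb, in protein-coding bodies alone, 43.9%, and with a neighbour within 1 kb, 100 kb or 1 Mb, 0.327%, 9.49% and 46.8%. With starts counted from 0, T before the first C fell to 50% and fitting first bases to 56.7%. With class IND alone, and so fewer regions to compare, 3 calls no longer passed. They were those in gene bodies (-5.79 points), in protein-coding bodies (-5.18 points) and for the ND5.1 signal (8.50 points), each with its sign kept. A 5 kb window brought 2 calls, at -8.71 and -6.64 points. When regions in at most 2 lists, rather than in ND5.3 alone, were set against those shared more widely, the differences turned to -0.27 points in gene bodies, -6.79 points in protein-coding bodies and -0.25 points at protein-coding bounds, none past the threshold. The looser CTCF form rose from 10.8% to 24.3% with flanks, an alternative added after seeing the data, as were the hexamer count and leaving out chromosome 8, which changed no call. The causes were not tested. Depth is unknown, so absence from a list is no measure of absence of deoxyuridine.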
